A study of Mus musculus with 15 samples.

Results

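SR proteins, hnRNP proteins and the splicing regulators PTB, RBFOX, NOVA, CELF and MBNL are described here in the trigeminal ganglion of mice with an injured cornea. The members were the protein-coding genes whose symbols begin with Srsf or Hnrnp, together with Srrm1 to Srrm4, Tra2a, Tra2b, Ptbp1 to Ptbp3, Rbfox1 to Rbfox3, Nova1, Nova2, Celf1 to Celf6 and Mbnl1 to Mbnl3. This rule was met by 54 of the 55573 genes counted, and 53 of them had a mean of 10 or more counts. Nova2 did not and is only named. By role there were 11 SR proteins, 6 SR-related proteins, 20 hnRNP proteins, 3 PTB proteins, 4 of the RBFOX and NOVA families and 9 of the CELF and MBNL families. The rule itself uses symbols and mean counts only.

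The tissue was the right trigeminal ganglion, which holds the cell bodies of the sensory neurons that supply the cornea. All 15 libraries came from male CD1 mice of 10 weeks whose cornea on that side had been injured with a 2 mm trephine and a rust ring remover, so there was no uninjured group. Drops were given 3 times a day until day 12 and held vehicle, resolvin D6 (RvD6, labelled RvD6-standard) or a stereoisomer of it first isolated from tears (RvD6si, labelled RvD6-isomer), with 5 libraries in each group. RvD6 and RvD6si differ in stereochemistry, and both were sampled at the same time. The paper pooled its RvD6si from fractions of lipids of mouse tears and corneal culture media, and describes its RvD6 standard as a gift. The preparation and the stereochemistry cannot be told apart in a comparison of the lipids. The concentration of the drops was not given in the sources used here.

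SR proteins carry an RNA recognition motif and a domain rich in arginine and serine, and they mostly promote the use of the exons they bind. hnRNP proteins bind nascent transcripts and often act against SR proteins at the same exons. PTB, RBFOX, NOVA, CELF and MBNL proteins set programs of alternative splicing in neurons and muscle, and Ptbp2 takes over from Ptbp1 as neurons form.

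Library totals ran from 4125962 to 9903396 counts. The summed level of 15 sensory neuron markers was 18036 to 20428 CPM (counts scaled to a common library size) in vehicle, 10588 to 18617 in RvD6 and 15988 to 20731 in RvD6si, and each of the 15 was detected in every group. Markers of some other cells set the RvD6 libraries apart. The summed level of 12 skeletal muscle markers was 92.8 to 2611 CPM there against 20.8 to 164 in vehicle and 15.4 to 42.0 in RvD6si. Granulocyte precursor markers, 12 in number, summed to 822 to 2639 CPM in RvD6, 134 to 724 in vehicle and 70.4 to 2050.1 in RvD6si, where replicate 15 was the highest and the other 4 reached at most 170.7. The 8 erythroid markers found summed to 5732 to 10596 CPM in RvD6 and 2377 to 5053 in vehicle, and to 11985 in RvD6si replicate 15 against at most 2606 in the other 4. None of these markers was at 0 in all libraries. Fewer cells of a type and less RNA per cell cannot be told apart in whole ganglia.

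The promoters of 4 members are shown because these 4 had every RvD6si library above every vehicle library and also passed the threshold of DESeq2. Each line runs 5′ to 3′ from 250 bases before to 50 bases after the RefSeq start (GRCm38.p6), and capitals mark letters found on either strand, overlaps included. The GC box bound by the SP family was searched as GGGCGG. The box bound by NF-Y was searched as CCAAT. The core of the cAMP response element bound by CREB was searched as TGACGT. The site of ETS factors was searched as CCGGAAG. The TATA box was searched as TATAAA. The 4 windows are chr6:51469845-51470144 on the minus strand for Hnrnpa2b1, and on the plus strand chr12:80945249-80945548 for Srsf5, chr15:103240147-103240446 for Hnrnpa1 and chr2:162931258-162931557 for Srsf6. Hnrnpa2b1 has 2 starts in RefSeq, of which the first listed is shown.
Hnrnpa2b1: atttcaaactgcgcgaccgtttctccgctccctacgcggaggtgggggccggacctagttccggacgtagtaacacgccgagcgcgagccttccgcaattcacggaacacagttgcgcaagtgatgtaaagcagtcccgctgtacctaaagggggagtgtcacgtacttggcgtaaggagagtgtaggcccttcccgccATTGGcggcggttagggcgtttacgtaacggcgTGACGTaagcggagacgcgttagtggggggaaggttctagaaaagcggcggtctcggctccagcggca
Srsf5: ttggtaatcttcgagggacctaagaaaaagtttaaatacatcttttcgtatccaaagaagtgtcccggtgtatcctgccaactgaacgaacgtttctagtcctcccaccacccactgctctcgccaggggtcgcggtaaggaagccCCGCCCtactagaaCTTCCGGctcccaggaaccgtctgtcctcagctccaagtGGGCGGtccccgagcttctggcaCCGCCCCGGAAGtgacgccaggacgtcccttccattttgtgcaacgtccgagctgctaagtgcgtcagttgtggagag
Hnrnpa1: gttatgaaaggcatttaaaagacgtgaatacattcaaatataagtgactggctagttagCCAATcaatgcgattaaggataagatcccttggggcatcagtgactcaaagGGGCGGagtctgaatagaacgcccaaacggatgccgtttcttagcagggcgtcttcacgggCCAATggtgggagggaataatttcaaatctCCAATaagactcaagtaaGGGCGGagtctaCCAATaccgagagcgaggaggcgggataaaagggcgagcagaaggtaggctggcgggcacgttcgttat
Srsf6: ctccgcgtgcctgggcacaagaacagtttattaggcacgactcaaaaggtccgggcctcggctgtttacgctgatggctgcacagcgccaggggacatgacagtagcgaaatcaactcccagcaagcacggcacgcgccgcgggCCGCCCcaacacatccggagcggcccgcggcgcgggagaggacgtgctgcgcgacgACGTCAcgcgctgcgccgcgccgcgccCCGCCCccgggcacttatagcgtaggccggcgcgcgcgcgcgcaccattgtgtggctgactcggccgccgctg

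The windows did not share one arrangement of these letters. Srsf5 held 3 GC boxes and 2 ETS sites, Hnrnpa1 held 2 GC boxes and 4 CCAAT boxes, and Srsf6 held 2 GC boxes and 1 cAMP response element core. Hnrnpa2b1 held 1 CCAAT box and 1 cAMP response element core and no GC box. A promoter sequence was found for 48 of the 53 members. A gene was counted if any of its RefSeq windows held the letters. There were 78 windows for these 48 members and 32851 for all 27025 genes, so members had more windows each in which to match. The cAMP response element core stood in 13 of these 48 (27.1%) and in 8.37% of all 27025 genes with a promoter sequence. GC boxes stood in 36 members (75.0%) and 38.2% of all genes, and CCAAT boxes in 27 members (56.2%) and 41.1% of all genes. ETS sites were found in 6 members (12.5%, against 9.93%) and TATA boxes in 7 (14.6%, against 15.7%). The median GC content was 63.2% over the members' windows and 52.7% over all windows. The letters were chosen after the values were seen, and a match is a description of the sequence only.

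Levels within the ganglion were compared per length, as TPM (counts divided by exonic length and scaled to the same sum in every library), with the SD over all 15 libraries. Mbnl2, a muscleblind protein that controls developmental switches in splicing, had the highest mean over the 15 libraries at 124 ± 22.4 TPM. In vehicle it did not stand apart from Hnrnpab, at 114.3 ± 7.07 and 114.1 ± 20.5 TPM (SD, n = 5), and Hnrnpab was the higher in 3 of the 5 libraries. Its lowest library lay above the highest library of Mbnl1, the next of its families at 19.8 ± 9.08 TPM. Celf1, Celf2 and Celf4 followed at 14.8 ± 4.34, 12.8 ± 3.09 and 10.9 ± 3.61 TPM, and Celf6, Celf3, Celf5 and Mbnl3 were lowest, with Mbnl3 at 0.388 ± 0.760 TPM. Among hnRNP proteins Hnrnpab had the highest mean over all libraries at 91.7 ± 33.3 TPM, followed by Hnrnpc (84.9 ± 15.6), Hnrnpf (80.0 ± 18.2) and Hnrnpk (76.1 ± 23.3), and Hnrnpul1 was lowest at 2.77 ± 1.06 TPM. All 19 pairs of neighbours in the hnRNP order overlapped in their libraries, so their exact order is not resolved. In RvD6si Hnrnpk, Hnrnpc and Hnrnpf had higher means (98.3, 96.3 and 90.4 TPM) than Hnrnpab (85.5 TPM).

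Srsf7 was the highest SR protein at 69.2 ± 10.7 TPM and Srsf12 the lowest at 3.12 ± 2.89 TPM, and 9 of the 10 pairs of neighbours overlapped. Of the SR-related proteins Srrm2, a large scaffold of nuclear speckles, led at 38.5 ± 8.69 TPM, and Srrm4, which drives neural microexons, was lowest at 0.600 ± 0.288 TPM. Rbfox1 (46.3 ± 11.8 TPM) and Rbfox2 (38.5 ± 7.97 TPM) overlapped, Rbfox3, the antigen known as NeuN, had 13.7 ± 5.88 TPM, and Nova1 stood below all of them at 1.08 ± 0.490 TPM. Ptbp1, Ptbp2 and Ptbp3 had like levels of 16.4 ± 5.40, 16.4 ± 7.66 and 15.2 ± 4.82 TPM.

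**Figure D1:**
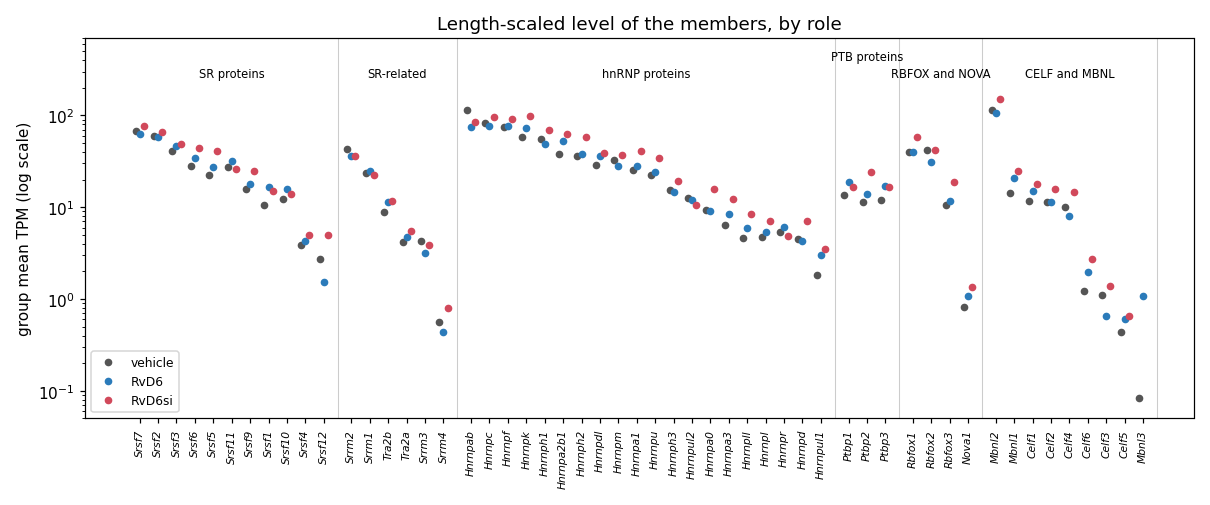
Mean TPM of each of the 53 members in vehicle, RvD6 and RvD6si (5 libraries each, log scale), grouped by role and ordered by level within a role. Mbnl2 and, in vehicle, Hnrnpab stand highest, and the RvD6si mean of Mbnl3 is 0 and is therefore not drawn.

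Together the 54 genes that met the rule, Nova2 included, took a larger share of the counts in RvD6si than in the other groups. The share was 0.355%, 0.370%, 0.343%, 0.346% and 0.353% in the vehicle libraries and 0.332%, 0.394%, 0.364%, 0.372% and 0.389% in the RvD6 libraries. In the RvD6si libraries it was 0.431%, 0.412%, 0.423%, 0.412% and 0.426%. Every RvD6si library lay above all 10 others, while RvD6 and vehicle overlapped. The share is set on library totals alone, without the TMM scaling used for the tests. With totals alone, genes in general also moved up in RvD6si relative to vehicle. Their median log2 difference was 0.09 on totals and 0.02 with TMM, and that of the members was 0.38 and 0.30. How far other genes shared the separation of the libraries was not tested. Library totals were 4125962 to 8762636 in RvD6si and 7421910 to 9903396 in vehicle, with overlap, and their part in the share was not tested.

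**Figure D2:**
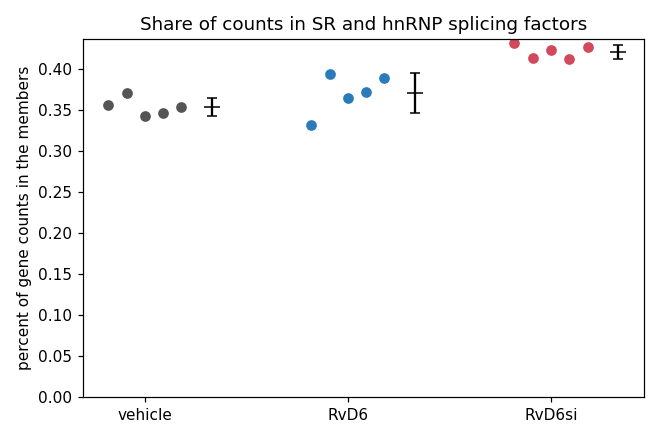
Percent of each library's gene counts that fell in the 54 genes that met the rule, Nova2 included, with group mean and SD (n = 5). The RvD6si libraries lie between 0.412% and 0.431% and the highest other library is at 0.394%.

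The first question was whether RvD6si changed splicing factor expression against vehicle. No member passed the adjusted threshold of 0.05 with edgeR's quasi-likelihood test over 16567 genes, although most fold changes were above 0. Of the 52 members tested (Mbnl3 did not pass the filter on low counts) 40 had a log2 fold change above 0, against 51.2% of all genes, and their median was 0.30 against 0.02 over all genes. Over all genes edgeR called 0.525% higher and 0.145% lower. At an unadjusted p below 0.05, 14 members were higher (26.9%, background 8.69%) and 1 was lower (1.92%, background 7.30%). DESeq2 called 6 members higher (background 4.82%) and none lower (background 3.30%). These were Hnrnpa2b1, Ptbp2, Hnrnpk, Srsf5, Hnrnpa1 and Srsf6. Every RvD6si library lay above every vehicle library for 5 members (9.62%, background 2.48%), and for 0 members did every library lie below (background 2.40%). With 1 library left out edgeR called 0 to 3 members. Without RvD6 replicate 9 these were Hnrnpa2b1, Ptbp2 and Srsf5 (background 0.993% higher), and without RvD6si replicate 12 they were Hnrnpk and Ptbp2 (background 0.774% higher). The count over all genes depended on single libraries too, at 111 with all of them, 229 and 168 in these fits, 6 to 13 without any 1 vehicle library, 0 without RvD6si replicate 11, 9 without replicate 14 and 68 without replicate 13.

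Part of this pattern moved with transcript length. The members tested had a median exonic length of 6525 bases, longer than 75.9% of the genes tested, and over all genes the RvD6si fold change rose with length (Spearman rho 0.29, a description). Over the 52 members themselves rho was -0.03. With each library's trend on length removed, the members' median was 0.16, with 8 members higher (background 7.43%) and 5 lower (background 6.54%) at an unadjusted p below 0.05.

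Of the hnRNP proteins 16 of 20 were above 0, with a median log2 fold change of 0.42, and 8 were higher at an unadjusted p below 0.05. Hnrnpa2b1, which binds and sorts RNA in neurites as well as regulating splicing, had normalized counts of 834, 750.0, 774, 761 and 759.9 in vehicle. In RvD6si they were 1204, 1078, 1171, 990.1 and 1120.0. The groups did not overlap (log2 fold change 0.52, SE 0.13, edgeR adjusted p = 0.0636, DESeq2 0.00149). Hnrnpa1, its close relative and a classical repressor of exons, had 279, 206, 279, 197 and 265 in vehicle and 352, 336, 363, 379.7 and 304 in RvD6si, again with no overlap (log2 fold change 0.50, SE 0.15, edgeR adjusted p = 0.108, DESeq2 0.0118). Hnrnpa1 has many processed pseudogenes, and reads matching several places were not counted, so its level is uncertain.

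Hnrnpk, a poly(C)-binding protein, had 1020.2, 1019.6, 1219.6, 1214 and 1319 in vehicle and 2167, 1174, 1997, 1783 and 1440.2 in RvD6si. Only RvD6si replicate 12 lay within the vehicle range (log2 fold change 0.56, SE 0.16, edgeR adjusted p = 0.0979, DESeq2 0.0172). Hnrnpu, a nuclear matrix and chromatin protein, had 901, 868, 656, 641 and 907 in vehicle and 849, 1054, 1289.8, 1065 and 1094 in RvD6si, where replicate 11 alone fell within the vehicle range (log2 fold change 0.43, SE 0.16, edgeR adjusted p = 0.187). Hnrnpa3, Hnrnph2, Hnrnpll and Hnrnpul1 had log2 fold changes of 0.77, 0.49, 0.66 and 0.75, each with libraries that overlapped between the groups. Without RvD6si replicate 12 the value of Hnrnpa3 was 0.40. Hnrnpab, an hnRNP protein of the A/B type, had 782, 1107, 1180.3, 1059.7 and 781 in vehicle and 269, 504, 780.4, 812 and 884 in RvD6si, with overlap (log2 fold change -0.60, SE 0.34, edgeR adjusted p = 0.408).

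Among SR proteins 7 of 11 were above 0 with a median of 0.17, and 2 were higher at an unadjusted p below 0.05. Srsf5 had 274, 294, 266, 254 and 289.5 in vehicle and 566, 343, 426, 455 and 402 in RvD6si, without overlap (log2 fold change 0.66, SE 0.19, edgeR adjusted p = 0.0979, DESeq2 0.0166). Srsf6 had 407, 497, 331, 349 and 480.3 in vehicle and 554, 654, 514, 601 and 575 in RvD6si, also without overlap (log2 fold change 0.48, SE 0.16, edgeR adjusted p = 0.141, DESeq2 0.0377). Both are SR proteins that bind exonic enhancers. Srsf7, the most expressed of the list, had 719, 685, 698, 685 and 938 in vehicle and 719, 621, 831, 789 and 688 in RvD6si, and the interval of its log2 fold change was -0.36 to 0.30.

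SR-related proteins were evenly split, with 3 of 6 above 0 and a median of -0.03. Srrm2 had 2166, 1863, 1626, 1539.9 and 1243 in vehicle and 948, 1069.5, 1488, 1426 and 1389.8 in RvD6si. The groups overlapped, and Srrm2 was the 1 member lower at an unadjusted p below 0.05 (log2 fold change -0.42, SE 0.19, edgeR adjusted p = 0.275).

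Among the PTB, RBFOX, NOVA, CELF and MBNL families, Ptbp2, the neuronal PTB protein, had 392, 404, 289, 295 and 201 in vehicle and 848, 395, 521, 609 and 593 in RvD6si. RvD6si replicate 12 alone lay within the vehicle range (log2 fold change 0.90, SE 0.24, edgeR adjusted p = 0.0795, DESeq2 0.00954). Ptbp1, its counterpart in other cells, had 135, 129.9, 169, 279 and 289 in vehicle and 172, 117, 272, 224 and 294 in RvD6si, with overlap and an interval of -0.53 to 0.74. Rbfox1, which binds GCAUG next to alternative exons, had 550.1, 586, 410.0, 561 and 566 in vehicle and 741, 698, 679, 660.1 and 729.8 in RvD6si, without overlap (log2 fold change 0.39, SE 0.15, edgeR adjusted p = 0.215). Rbfox3 ranged over 132 to 263 in vehicle and 193 to 465 in RvD6si (log2 fold change 0.64, SE 0.26, edgeR adjusted p = 0.221), and without RvD6si replicate 12 its value was 0.42. All 8 CELF and MBNL members tested were above 0 (median 0.36), and Mbnl1 ranged over 645 to 901 in vehicle and 631 to 2214 in RvD6si, so that its groups overlapped (log2 fold change 0.59, SE 0.27). Without RvD6si replicate 11 the value of Mbnl1 was 0.27. The summed sensory neuron markers overlapped between RvD6si and vehicle, and at an unadjusted p below 0.05 0 of the 15 were higher and 1 was lower.

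**Figure D3:**
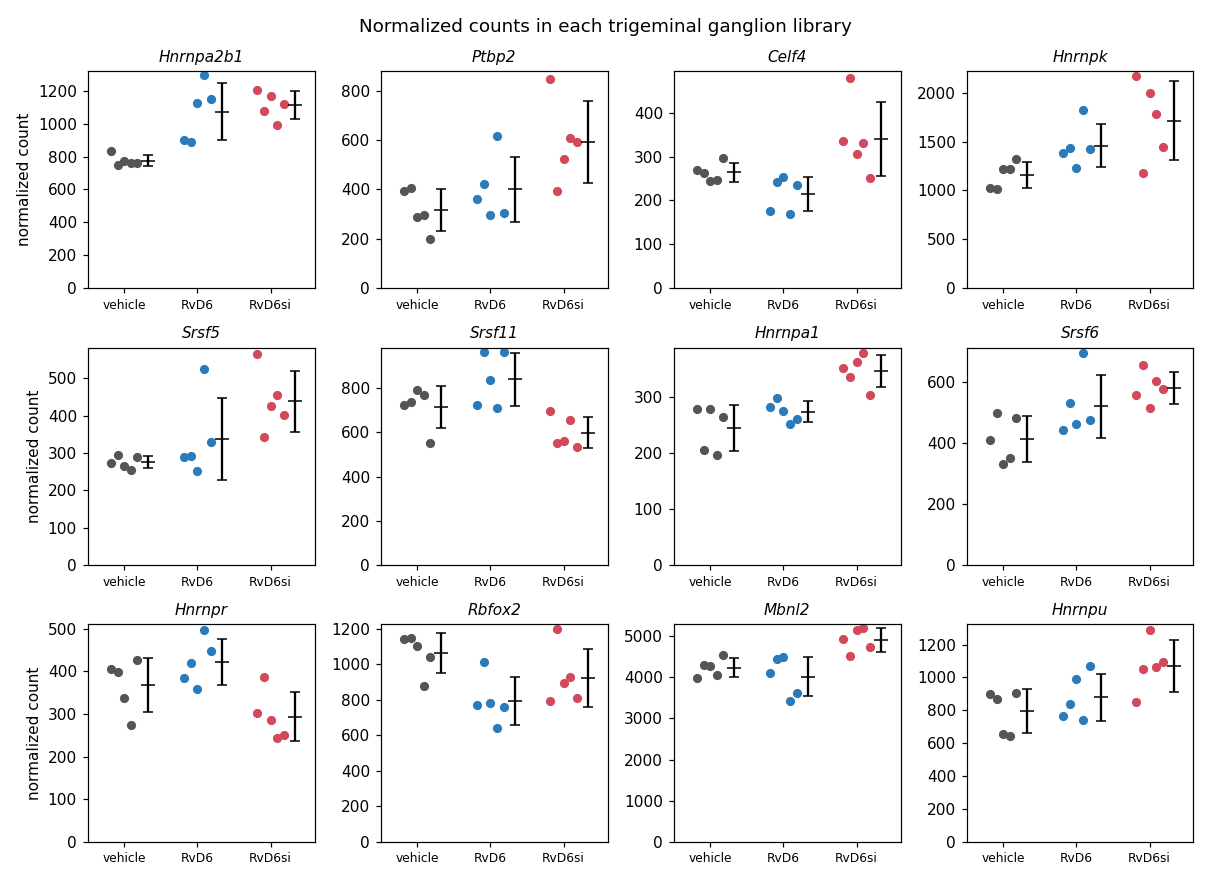
Normalized counts in each library for the 12 members with the smallest edgeR p in any of the 3 contrasts, with group mean and SD (n = 5). The RvD6si libraries of Hnrnpa2b1, Srsf5, Hnrnpa1 and Srsf6 all lie above the vehicle libraries.

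The second question was the same for RvD6. The members' median log2 fold change was 0.15 against 0.02 over all genes, and 33 of 52 were above 0, against 52.2% of all genes. Without vehicle replicate 4 the median was 0.094, and without vehicle replicate 1 it was 0.22. edgeR called no member, and of all genes 0.00% higher and 0.00% lower. At an unadjusted p below 0.05, 3 members were higher (5.77%, background 7.63%) and 1 was lower (1.92%, background 5.99%), both shares under the background. DESeq2 called Hnrnpa2b1 higher (background 1.44%) and no member lower (background 0.479%). Libraries did not overlap for 2 members that were higher (3.85%, background 2.25%) and for 0 that were lower (background 1.47%).

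Hnrnpa2b1 had 903, 889.5, 1126, 1294 and 1148 in RvD6, all above the vehicle libraries (log2 fold change 0.45, SE 0.13, edgeR adjusted p = 0.160, DESeq2 0.0162). Both lipids were set against the same vehicle libraries, so the values of this gene under RvD6 and RvD6si are not independent. Mbnl1 was the other member without overlap, with 921, 1354, 913, 1519.6 and 1309.7 in RvD6 and 867, 901, 645, 850.1 and 803 in vehicle (log2 fold change 0.55, SE 0.26, edgeR adjusted p = 0.373). Rbfox2, the most widely expressed RBFOX protein, had 1146, 1151, 1101, 876 and 1040.4 in vehicle and 771, 1016, 780.4, 641 and 759 in RvD6. One RvD6 library, replicate 7, lay within the vehicle range (log2 fold change -0.44, SE 0.15, edgeR adjusted p = 0.212). Hnrnpul1 and Ptbp3 had log2 fold changes of 0.73 and 0.51 with overlap. Of the 15 sensory neuron markers, 8 were lower in RvD6 at an unadjusted p below 0.05, and all 11 skeletal muscle markers tested were higher. Also higher were all 8 erythroid, all 12 granulocyte precursor, 4 of 7 fibroblast, 5 of 9 cycling cell and 2 of 8 macrophage markers. Of 9 satellite glia markers 1 was higher and 1 lower, and of 7 endothelium markers 1 was higher and 1 lower. Of 9 myelinating Schwann cell markers 1 was higher. The part of these cells in these values was not tested.

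**Figure D4:**
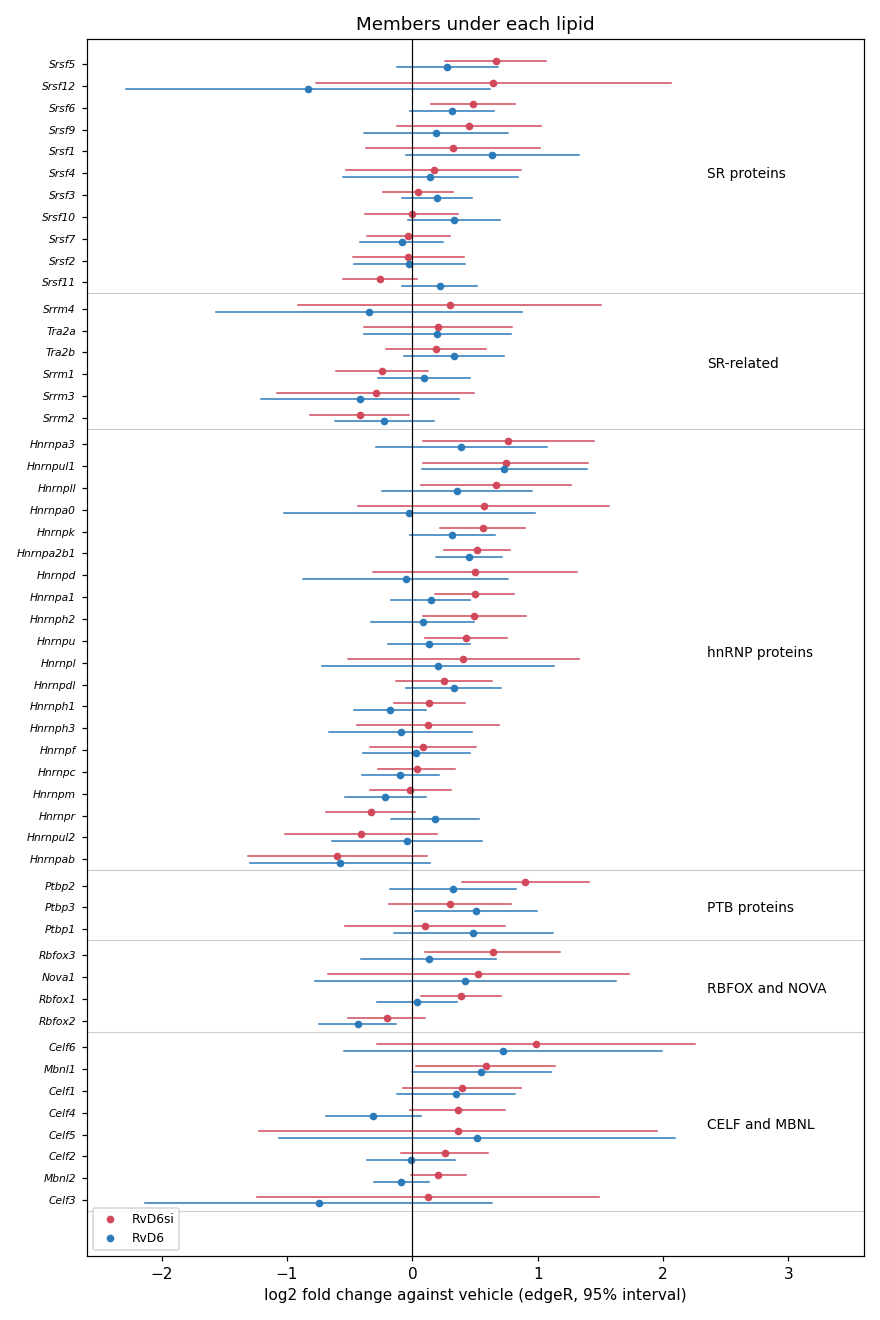
Log2 fold change of the 52 members tested under RvD6si and RvD6 against the same vehicle libraries (edgeR, lines are 95% intervals), grouped by role. Hnrnpa2b1 and Hnrnpul1 have intervals above 0 under both lipids, and no member passed the adjusted threshold.

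The third comparison set the stereoisomers against each other directly, as 1 pair at the same time point. edgeR called no member, with a background of 0.0121% higher and 0.223% lower in RvD6si. The members' median was 0.15 against 0.00 over all genes, and 37 of 52 were above 0, against 49.5% of all genes. At an unadjusted p below 0.05, 7 were higher (13.5%, background 4.18%) and 2 lower (3.85%, background 4.64%). Libraries did not overlap for Mbnl2 and Hnrnpa1, which were higher in RvD6si (3.85%, background 0.652%), and for Srsf11, which was lower (background 1.09%). DESeq2 called Celf4 higher (background 0.258%) and, lower, only Mbnl3 (background 0.678%). Mbnl3 reached a mean of 10 counts only through its RvD6 libraries, so its call is not read as a difference between the lipids.

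Celf4, a neuronal regulator of mRNA in excitable cells, had 177, 242, 254, 169.8 and 235 in RvD6 and 335, 480.0, 305, 330.0 and 252 in RvD6si. RvD6si replicate 15 was the only one within the RvD6 range (log2 fold change 0.67, SE 0.18, edgeR adjusted p = 0.200, DESeq2 0.0406). With only the 2 lipids fitted DESeq2 did not call it (adjusted p = 0.110). The vehicle libraries, at 268, 263, 245, 247 and 298, overlapped those of both lipids. Mbnl2 had 4109.9, 4436, 4483, 3429.6 and 3618 in RvD6, 4926, 4513, 5139.9, 5197 and 4732 in RvD6si and 3983, 4294, 4282, 4044 and 4551 in vehicle (log2 fold change 0.30, SE 0.10 between the lipids, edgeR adjusted p = 0.376). Srsf11 had 725, 962, 838, 713 and 962 in RvD6, 697, 551, 559.5, 655 and 536 in RvD6si and 724, 738, 794, 768 and 552 in vehicle (log2 fold change -0.48, SE 0.14, edgeR adjusted p = 0.260). Hnrnpr had 385, 420.0, 359, 497 and 447 in RvD6 and 303, 387, 286, 243 and 250.3 in RvD6si, with RvD6si replicate 12 in the RvD6 range (log2 fold change -0.51, SE 0.17, edgeR adjusted p = 0.329).

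Ptbp2, Hnrnpa1, Rbfox1 and Hnrnph1 had log2 differences of 0.58, 0.35, 0.35 and 0.31. Srsf12 had 1.48, on few counts, with 10.9, 4.51, 7.00, 52.1 and 2.01 in RvD6 and 94.9, 22.4, 23.7, 45.5 and 24.4 in RvD6si. Its value was 2.76 without RvD6 replicate 9 and 0.95 without RvD6si replicate 11. None of these 5 passed the adjusted threshold of either tool. The interval of the log2 difference was -0.20 to 0.33 for Hnrnpa2b1, -0.17 to 0.50 for Srsf6, -0.02 to 0.79 for Srsf5 and -0.10 to 0.58 for Hnrnpk. The summed sensory neuron markers were lower in RvD6 replicates 9 and 10 (10588 and 11776 CPM) than in any other library, and the part of this in the neuronal members was not tested.

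Mbnl3, the third muscleblind protein, had 161 counts in all, of which 146 were in RvD6. Its raw counts were 7, 65, 14, 3 and 57 in RvD6, 0, 0, 15, 0 and 0 in vehicle and 0 in all 5 RvD6si libraries. The normalized count of vehicle replicate 3, 12.0, lay above those of 2 RvD6 libraries (5.47 and 3.72), and DESeq2 did not call RvD6 against vehicle (adjusted p = 0.198). Since it met the minimum of 10 counts through RvD6 alone, these values are a description and no fold is given. The RvD6 libraries were also the ones with raised erythroid, granulocyte precursor and muscle markers. RvD6si replicate 15, the shallowest library at 4125962 counts, had erythroid and granulocyte precursor sums in the range of RvD6 or above it. Its muscle sum was 15.4 CPM, and it had 0 counts of Mbnl3. In RvD6 replicates 6 to 10, in order, the muscle sums were 398.2, 92.8, 1837.5, 2610.7 and 306.5 CPM. Granulocyte precursor sums in the same order were 2117.5, 2639.3, 1230.0, 822.2 and 2631.3 CPM, and erythroid sums 10043.8, 8293.9, 10396.1, 5731.7 and 10595.5 CPM. The part of these cells in the Mbnl3 counts was not tested.

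Genes that work with the members were counted from fixed lists. The shares of all genes called, given above for each contrast and tool, are the background of these counts too. So are the shares of all genes above 0 given above for each contrast. Among 21 SR protein kinases and partners, edgeR called none in any contrast. DESeq2 called Tnpo3 higher under RvD6si (adjusted p = 0.00963), Ccnl2 higher under RvD6 (0.0316) and Ccnl2 lower in RvD6si than in RvD6 (0.00103). Only 4 of 21 were above 0 under RvD6si with a median log2 fold change of -0.21. Tnpo3, which imports SR proteins into the nucleus, (log2 fold change 0.76, SE 0.20, adjusted p = 0.0804) and Pnn (log2 fold change -0.58, SE 0.20, adjusted p = 0.168) had the smallest p. Under RvD6 15 of 21 were above 0, and Ccnl2, a cyclin of splicing kinases, (log2 fold change 0.56, SE 0.16, adjusted p = 0.175) and the SR protein kinase Clk3 (log2 fold change -0.57, SE 0.24, adjusted p = 0.313) came first. Between the lipids 2 of 21 were above 0 (median -0.22), and Ccnl2 (log2 fold change -0.76, SE 0.17, adjusted p = 0.0706) and Pnn (log2 fold change -0.69, SE 0.20, adjusted p = 0.260) came first. Of the 52 spliceosome core genes 49 were tested and edgeR called none. DESeq2 called 2 higher and 3 lower under RvD6si, 0 under RvD6 and 1 higher in RvD6si than in RvD6. Their median was -0.09 under RvD6si, where Sf3b5 (log2 fold change -0.70, SE 0.18, adjusted p = 0.0697) and Snrpa1 (log2 fold change -0.69, SE 0.20, adjusted p = 0.100) came first, and -0.03 under RvD6, where Prpf8 (log2 fold change 0.37, SE 0.13, adjusted p = 0.223) and Sf3a1 (log2 fold change 0.80, SE 0.29, adjusted p = 0.238) did. Between the lipids their median was 0.00, and Crnkl1 (log2 fold change 1.03, SE 0.25, adjusted p = 0.124, DESeq2 0.013) and Sf3b5 (log2 fold change -0.43, SE 0.18, adjusted p = 0.481) came first.

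Of 34 other regulators of splicing 31 were tested, with medians of 0.18 under RvD6si and 0.20 under RvD6, and 0.06 between the lipids. DESeq2 called 3 higher and 1 lower under RvD6si and 0 in the other contrasts. Elavl4, a neuronal Hu protein that binds AU-rich RNA, was the only gene of the 3 lists that edgeR called, and it rose under RvD6si (log2 fold change 1.13, SE 0.23, adjusted p = 0.0346). Its mean normalized count was 564 ± 89.8 in vehicle, 748 ± 269 in RvD6 and 1239.9 ± 364 in RvD6si (SD, n = 5). The edgeR call held in 7 of the 15 fits with 1 library left out. It was lost without any 1 vehicle library and without RvD6si replicates 11, 14 or 15 (log2 fold change 0.96 to 1.20, adjusted p up to 0.108), and with the length trend removed (0.99, adjusted p = 0.0522). Between the lipids Elavl4 (log2 fold change 0.74, SE 0.23, adjusted p = 0.284) and Rbm5 (log2 fold change -0.52, SE 0.19, adjusted p = 0.384) came first. Under RvD6 the smallest p belonged to Khdrbs1 (log2 fold change 0.64, SE 0.25, adjusted p = 0.278) and Syncrip (log2 fold change 0.46, SE 0.21, adjusted p = 0.348).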

How the data were processed

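RNA from 15 ganglia was amplified by Smart-seq2, tagmented with Nextera XT and sequenced on a NextSeq. The authors aligned reads with Rsubread in R 3.6.1 to GRCm38 with GENCODE M22 and deposited raw counts per gene from featureCounts (Subread 1.6.5 in the labels, 1.5.0-p1 in the header), with exonic lengths. Counting used neither strand nor reads shared between genes. Of the 53 members 33 overlap another gene (26 on the opposite strand), and their reads could not be told apart by strand. Symbols were taken from GENCODE M21 and matched 99.8% of identifiers.

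Counts were tested with edgeR 4.0.16 (quasi-likelihood, TMM, filterByExpr, all 15 samples, Benjamini-Hochberg threshold 0.05 over 16567 genes) in R 4.3.3. SE was the absolute log2 fold change divided by the square root of F. DESeq2 1.42.0, the study's tool, was the alternative, run with default settings on all rows. All rows were chosen after a run without the rows that hold no counts had been seen, because a previous analysis of these data had used the defaults. For RvD6si against vehicle the runs called 920 and 909 genes, and the members called were identical in both for each contrast. Normalized counts are counts divided by DESeq2 size factors. TPM was computed from counts and exonic length, CPM on TMM library sizes. Python 3.11.15 was used for summaries and plots, and the fits were checked on simulated counts.

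Members and lists were chosen with earlier results of these data known. Values in every sample are given for members called by edgeR, then by smallest p until 12 were named, and for the highest TPM of each role. Members with an unadjusted p below 0.05, called by DESeq2, or at the end of a role list were also named. In the lists of partners, genes called by edgeR or else those with the 2 smallest p were named. Promoters came from RefSeq. Alternatives were DESeq2 with all or 2 groups, edgeR with 2 groups, other normalizations and filters, removal of the length trend (lowess, span 0.3), and each sample left out. Thinned counts, DESeq2 without empty rows, other scalings of overlap and the alternatives for the partner gene called by edgeR were added after the data had been seen. Replicates were separate ganglia numbered 1 to 15 without pairing. Library totals of 4125962 to 9903396 set the precision of each count.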

Additional observations from a re-analysis of the deposited data

Results flagged for a closer look

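In 81 groups of 5 libraries, of the 27 members named, 10 held a library whose distance from the nearest of the others was over 0.71 of the whole range of the group. For values with a normal spread, chance gives about 1 such group in 20. Most of these members were named for a small p in the same data, so this share is only a guide. The RvD6si group of Mbnl3, at 0 throughout, could not be flagged.

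Vehicle held 5 of them. Hnrnpa2b1 stood at 834 normalized counts in replicate 1, against 750.0 to 774 in the others, still below the lowest RvD6si library. Hnrnph1 stood at 1219.6 in replicate 3, against 901 to 969.7. Rbfox1 was low in the same replicate, at 410.0 against 550.1 to 586. Mbnl3 was detected in vehicle replicate 3 alone, at 12.0. Srsf7 stood at 938 in replicate 5, against 685 to 719.

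RvD6 held the other 5. In replicate 7 Rbfox1 stood at 776 (others 441 to 531.5) and Rbfox3 at 327 (others 145 to 197). In replicate 9 Srsf5 stood at 525.5 (others 250.8 to 330.2) and Srsf12 at 52.1 (others 2.01 to 10.9). Hnrnpul1 stood at 127 in replicate 6 (others 61.6 to 75.7). No difference between the lipids passed the adjusted threshold of edgeR in any member.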

How the results depend on the processing

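No paired analysis was possible because the replicate numbers 1 to 15 are not shared between groups. No member with an unadjusted p below 0.05 changed sign under any of the 26 alternatives per contrast, and no member was called lower against vehicle under either lipid in any of them. The members with the highest level in each role kept that rank when counts were scaled per kilobase on TMM library sizes.

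For RvD6si against vehicle, where edgeR called 0 members higher, DESeq2 called 6 with all samples, 6 without empty rows and 7 with 2 groups (Rbfox1 added). The backgrounds of these fits, in that order, were 4.82%, 4.6% and 5.41% higher. edgeR called 1 with 2 groups (Hnrnpa2b1, background 0.834%) and 2 with library totals only (Hnrnpa2b1, Hnrnpk, background 1.33%). It called 2 with at least 10 counts in every sample (Hnrnpa2b1, Ptbp2, background 1.92%), and 0 to 3 with 1 library left out. Without RvD6 replicate 9 they were Hnrnpa2b1, Ptbp2 and Srsf5 (background 0.993%), and without RvD6si replicate 12 Hnrnpk and Ptbp2 (background 0.774%). The count higher at an unadjusted p below 0.05 was 8 with the length trend removed (background 7.43%). The count lower was 2 with each DESeq2 fit (background 4.59% to 4.77%), edgeR on 2 groups (7.02%) and no filter (5.65%). It was also 2 with upper-quartile normalization (7.95%) and thinned counts (7.6%), and 0 with library totals (4.57%). It was 5 with the length trend removed (6.54%), and 0 to 3 with 1 library left out (5.35% to 7.98%). In the DESeq2 fit with all samples the 2 lower members were Srrm2 and Mbnl3. Mbnl3 met the minimum of 10 counts through RvD6 alone, so its place in that count is not read as a difference. The members' median was 0.38 with library totals only and 0.16 with the length trend removed. Library totals moved the median of all genes to 0.09.

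For RvD6 against vehicle DESeq2 called 1 member higher, 1 without empty rows and 2 with 2 groups (Hnrnpa2b1, Mbnl1). The backgrounds, in that order, were 1.44%, 1.43% and 2.47% higher. The count higher at an unadjusted p below 0.05 was 7 in each DESeq2 fit (background 5.45% to 6.32%). It was 5 with edgeR on 2 groups (8.08%), 6 with no filter (8.33%) and 7 with at least 10 counts in every sample (8.52%). With the length trend removed it was 1 (6.62%), and with 1 library left out 2 to 7 (5.56% to 8.39%). The 7 members of the DESeq2 fit with all samples included Mbnl3. Mbnl3 met the minimum of 10 counts through RvD6 alone, so its place in that count is not read as a difference. The count lower was 4 with the length trend removed (background 6.28%) and 1 to 2 with 1 library left out (4.15% to 7.1%). The median was 0.054 with the length trend removed and 0.094 to 0.215 with 1 library left out. With library-total scaling 1 member had every RvD6 library above vehicle.

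For RvD6si against RvD6 DESeq2 called 1 member higher (Celf4) and 1 lower (Mbnl3), the same without empty rows, and with 2 groups 0 higher and 1 lower. The backgrounds of the higher calls, in that order, were 0.258%, 0.256% and 0.202%. For the lower call with all samples the background was 0.678%, and it was not computed for the other fits. Each lower call was Mbnl3, which met the minimum of 10 counts through RvD6 alone. The count higher at an unadjusted p below 0.05 was 11 with library totals (background 6.58%). It was 4 with at least 10 counts in every sample (4.64%) and 3 to 9 with 1 library left out (3.19% to 5.33%). The count lower was 4 with the length trend removed (background 4.61%) and 2 to 4 with 1 library left out (3.65% to 6.61%). Members with every RvD6si library above RvD6 numbered 1 with TMM or upper-quartile scaling, and 0 lay below with library-total scaling. The shares of all genes without overlap were not computed under these other scalings. All of these are refits under other settings, and the cause of the changes was not tested. Depth of 4125962 counts in the shallowest library limits members such as Srsf12 and Mbnl3.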
